A study of Mus musculus with 2 samples.

Results

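The MiT family comprises the transcription factor genes *Mitf*, *Tfec*, *Tfeb* and *Tfe3*, and these 4 of the 31053 genes in the deposited tables were chosen by name and followed across the cell classes of the embryonic mouse eye. Eye cups were taken at e13.5, with cornea, lens and optic nerve removed. The control library held 3 pooled samples of the genotype Myrf fl/fl, and the mutant library held 3 pooled samples of the genotype Rx>cre Myrf fl/fl, in which Cre recombinase driven by *Rx* sequences deletes *Myrf* in cells descended from the early eye field. Both groups carry the floxed *Myrf* allele, and they differ in the Cre transgene. Each genotype is 1 library, so no spread between animals could be measured, no test was made, and every interval below covers counting error only.

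MiT proteins are basic helix-loop-helix leucine zipper factors that bind DNA as dimers with themselves or with one another, at E-boxes of the form CACGTG and at the related M-box CATGTG. MITF is the factor best known for the pigment cell fate. It is required both in the retinal pigment epithelium (RPE), which arises from the optic cup, and in melanocytes, which arise from the neural crest, and it switches on genes for melanin synthesis. TFEB and TFE3 are known for driving genes of lysosomes and autophagy when they enter the nucleus, and TFEC is known from macrophages and the RPE.

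The files gave the number of unique molecular identifiers (UMIs), each a single captured transcript, per gene and barcode. The control held 63483835 UMIs over 6039 barcodes, and the mutant 75228861 UMIs over 6754 barcodes. After removal of barcodes with a high mitochondrial share and of doublets, 5468 control and 6300 mutant cells were kept and grouped into 29 clusters, which were named by marker genes with the ending "-like". The MiT genes and their target lists took no part in the choice of clustering features, although some pigment genes were among the markers that named the RPE-like and melanocyte-like clusters. A level sums a gene's UMIs over all cells of 1 class and 1 library and scales them to 1000000 UMIs of that class (CPM), with its 95% exact Poisson interval in parentheses. Only the 3′ ends of transcripts are counted, so a level is not scaled by gene length, and the 3′ counts do not tell the isoforms of *Mitf* apart. A ratio is the log2 of mutant over control CPM after 1 UMI was added to both sums, and its interval is the exact binomial one given their total.

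RPE-like cells numbered 234 in the control and 151 in the mutant. Of the 16 RPE markers 12 were detected, and *Rgr*, *Rpe65*, *Slc6a20a* and *Lrat*, which serve the mature RPE, stood at 0 in both libraries. The summed markers reached 12830 CPM in the control and 8501 CPM in the mutant. Melanocyte-like cells numbered 45 and 34, with 10 of 11 markers detected and *Tyrp1* at 0 in both libraries. Macrophage-like cells numbered 125 and 137, with all 12 markers detected. A total of 72 barcodes occurred in both libraries, 60 of them with UMI totals within 20% of each other. They filled most of 1 unnamed cluster of shallow cells, and 1 such barcode was RPE-like, 1 macrophage-like and none melanocyte-like. *Myrf*, the targeted gene, had 154 UMIs in control RPE-like cells, or 74.3 CPM (63.0 to 87.0), and 30 UMIs in mutant RPE-like cells, or 20.1 CPM (13.6 to 28.7). Whether the counted 3′ reads cover the floxed part of *Myrf* is not given in the sources used here. In melanocyte-like cells *Myrf* had 5 and 4 UMIs.

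The MiT genes lie on 3 chromosomes of the mm10 build (GRCm38). *Mitf* spans chr6:97807052-98021349 on the forward strand, and its 6 coding transcripts in the GENCODE M21 annotation begin at 6 different positions. *Tfec* lies on the same chromosome at chr6:16833373-16898441 on the reverse strand. *Tfeb* lies at chr17:47737030-47792419 and *Tfe3* at chrX:7762560-7775202, both on the forward strand. No other gene in the tables overlaps any of the 4 loci.

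*Mitf* was found at high level in both pigment cell classes. In the control it had 212 UMIs in melanocyte-like cells, or 245.3 CPM (213.4 to 280.6), and 361 UMIs in RPE-like cells, or 174.2 CPM (156.6 to 193.1). In the mutant it had 102 UMIs in melanocyte-like cells, or 155.3 CPM (126.6 to 188.5), and 230 UMIs in RPE-like cells, or 154.0 CPM (134.7 to 175.2). These 2 pigment cell classes together held most *Mitf* UMIs of each library, with 48.0% of the control UMIs and 45.1% of the mutant UMIs in RPE-like cells alone. The melanocyte-like level was 1.41-fold (1.18 to 1.67) that of RPE-like cells in the control, beyond counting error. In the mutant the same comparison gave 1.01-fold (0.791 to 1.28), so the 2 neighbours in the order did not differ beyond counting error.

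Among the named classes macrophage-like cells came next for *Mitf* with 20 and 19 UMIs, or 11.2 and 10.7 CPM. RPE-like cells exceeded them 15.6-fold (9.97 to 25.9) in the control and 14.4-fold (9.03 to 24.4) in the mutant. Retinal progenitor-like cells had 72 and 53 UMIs, or 4.02 and 3.03 CPM, over 1300 and 1369 cells. The RPE-like level was 43.3-fold (33.6 to 56.6) and 50.8-fold (37.6 to 69.9) higher than that. Periocular mesenchyme-like cells, from which much of the anterior eye is built, had 42 and 60 *Mitf* UMIs, or 2.48 and 2.95 CPM. Red blood cell-like cells, where no *Mitf* is expected, held 2 and 4 UMIs, or 0.473 and 0.390 CPM. Their median depths were 22476.5 and 22723.5 UMIs, so this level need not hold for free RNA in shallower cells. The unnamed cells, at median depths of 921 and 1137 UMIs, stood at 7.325 (4.1 to 12.08) and 4.977 CPM (2.485 to 8.905). An unnamed cluster of 585 and 441 cells among them had 11 and 6 UMIs, or 18.63 and 11.78 CPM, above the macrophage-like level. From the macrophage-like class downward, each class overlapped its neighbour in the order in both libraries.

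**Figure D1:**
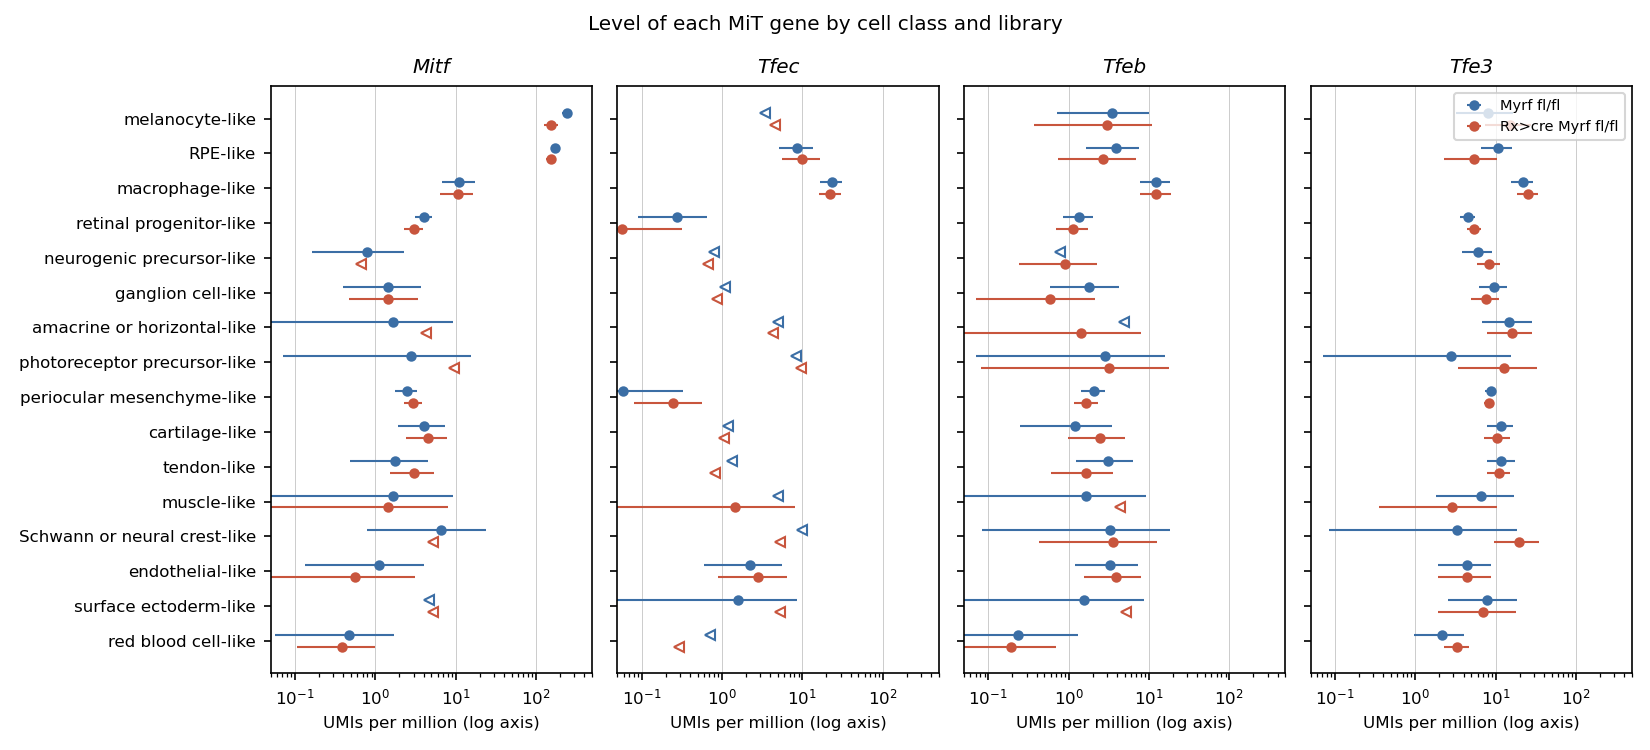
Level of each MiT gene by cell class and library, as CPM with exact Poisson intervals. *Mitf* reached 245.3 and 155.3 CPM in melanocyte-like cells and 174.2 and 154.0 CPM in RPE-like cells, while *Tfec*, *Tfeb* and *Tfe3* were highest in macrophage-like cells.

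*Tfec* was detected mainly in 2 classes. Macrophage-like cells had 42 UMIs, or 23.4 CPM (16.9 to 31.6), in the control and 40 UMIs, or 22.5 CPM (16.1 to 30.6), in the mutant. RPE-like cells had 18 UMIs, or 8.68 CPM (5.15 to 13.7), and 15 UMIs, or 10.04 CPM (5.62 to 16.6). The macrophage-like level was 2.7-fold (1.52 to 4.97) the RPE-like level in the control and 2.24-fold (1.21 to 4.36) in the mutant. Melanocyte-like cells held no *Tfec* UMI, and at a floor of 3 UMIs per library a level of up to 3.47 CPM in the control and 4.57 CPM in the mutant could have been missed. The exact intervals of the 2 pigment cell classes, both high in *Mitf*, did not overlap for *Tfec* in the control and met at their edges in the mutant. Endothelial-like cells had 4 and 5 UMIs, and red blood cell-like cells had none.

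*Tfeb* and *Tfe3* had low counts over many classes. *Tfeb* had 22 UMIs in macrophage-like cells of each library, or 12.3 and 12.4 CPM, and 8 and 4 UMIs in RPE-like cells, or 3.86 and 2.68 CPM. The macrophage-like level was 3.18-fold (1.36 to 8.25) that of RPE-like cells in the control and 4.61-fold (1.57 to 18.4) in the mutant. *Tfe3* had 39 and 45 UMIs in macrophage-like cells, or 21.7 and 25.3 CPM, 22 and 8 UMIs in RPE-like cells, or 10.6 and 5.36 CPM, and 7 and 10 UMIs in melanocyte-like cells, or 8.10 and 15.2 CPM. It was also found in periocular mesenchyme-like cells at 8.68 and 8.30 CPM and in retinal progenitor-like cells at 4.52 and 5.43 CPM, and red blood cell-like cells held 2.13 and 3.32 CPM. The first 2 classes in the *Tfe3* order overlapped in both libraries, so no single class stood out for *Tfe3*. *Tfe3* is X-linked. It stood at 7.69 and 7.12 CPM in 1964 control and 1559 mutant cells of female embryos. In 1138 and 1764 cells of male embryos it stood at 8.08 and 8.73 CPM. Sex was told by *Xist* and Y-linked transcripts, and kept cells with neither or with both were left out.

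Among single cells, *Mitf* and *Tfec* transcripts overlapped in the RPE. Among RPE-like cells, 122 of 234 in the control and 81 of 151 in the mutant held a *Mitf* UMI. Of the 12 control RPE-like cells with a *Tfec* UMI 9 also had a *Mitf* UMI, and of the 13 such mutant cells 12 did. The cells with a *Tfec* UMI were deep, with a median of 16019 UMIs against 5287 in the other control RPE-like cells and 18276 against 3170 in the mutant, so depth moved with this overlap and its part was not tested. In macrophage-like cells 7 control and 8 mutant cells had both genes, 8 and 7 had *Mitf* alone, and 18 and 18 had *Tfec* alone. No cell of the macrophage-like class held more than 2 *Mitf* UMIs, whereas single RPE-like cells held up to 9 and 10 and single melanocyte-like cells up to 19 and 9.

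To compare cells of unlike depth, each cell was thinned to 3000 UMIs, and shallower cells were left out. Of the remaining RPE-like cells 47 of 131 in the control, 35.9% (27.7 to 44.7, Clopper-Pearson), and 25 of 80 in the mutant, 31.3% (21.4 to 42.6), had a *Mitf* UMI. The thinning left out 103 control and 71 mutant cells. The unthinned shares were 52.1% at a median depth of 6806.5 UMIs and 53.6% at a median depth of 4260 UMIs. Thinned melanocyte-like cells had a *Mitf* UMI in 41.7% and 32.0% of cells, macrophage-like cells in 7.69% and 4.88%, and retinal progenitor-like cells in 0.994% and 1.04%. Red blood cell-like cells had one in 0 of 178 control and 0 of 413 mutant cells, which allows shares of up to 1.69% and 0.726%. At this depth the RPE-like shares of the 2 libraries did not differ beyond counting error, and both lay far above the red blood cell-like background.

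The mutant and control libraries were then compared class by class. A gene was called where it differed by at least 1.5-fold and its interval excluded 0, among genes whose UMIs in the pair of libraries summed to 10 or more. In RPE-like cells 4.81% of 11181 genes were called lower and 3.23% higher. No MiT gene was called in this class. *Mitf* had a log2 ratio of -0.17 (-0.42 to 0.07), *Tfec* 0.23 (-0.88 to 1.28), *Tfeb* -0.38 (-2.71 to 1.37) and *Tfe3* -0.88 (-2.36 to 0.24). Each of these intervals included 0, and that of *Mitf*, the only narrow one, excluded a loss as large as the -1.85 (-2.50 to -1.32) of *Myrf* in the same cells.

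The *Mitf* ratio in RPE-like cells moved with the cells that were taken. It was 0.07 (-0.34 to 0.49) in cells of which at most 5% of UMIs were mitochondrial, 94 control and 85 mutant cells, and -0.27 (-0.62 to 0.05) in the cells above that share. It was -0.58 (-1.21 to -0.04) in the cells of female embryos, 40 and 14, and 0.07 (-0.27 to 0.41) in those of male embryos, 64 and 45. Of the control RPE-like cells 13 held a UMI of *Sox10*, a transcription factor of neural crest derivatives, against 0 in the mutant, and without these cells the ratio was -0.17 (-0.42 to 0.08). *Sox10* stood at 7.24 CPM in control RPE-like and 340.2 CPM in control melanocyte-like cells, while *Pax3*, at 159.7 CPM in the latter, was at 0 in RPE-like cells of both libraries. The sign of the *Mitf* ratio thus differed between subsets of RPE-like cells, but their intervals overlapped, so its direction in the mutant RPE was not settled.

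In melanocyte-like cells *Mitf* was called lower, the only MiT gene called in any of the 3 classes, with a log2 ratio of -0.65 (-1.02 to -0.31). In these cells 2.68% of 8477 genes were called lower and 1.64% higher. The median control cell had 4 *Mitf* UMIs and the median mutant cell 2, at similar median depths of 20586 and 21494 UMIs. Without the cell richest in *Mitf* in each library the ratio was -0.66 (-1.04 to -0.30). It was -0.57 (-1.09 to -0.08) in cells of female embryos, 20 and 14, and -0.42 (-1.02 to 0.14) in cells of male embryos, 10 and 10. As a difference of the means of log2(CPM + 100) per cell it was smaller, at -0.15. The difference rests on 45 and 34 cells, and the pooled embryos of each library cannot be told apart from the genotype. The ratio of *Mitf* was below 0 under each alternative that gave a value for a class of this name, from -0.99 to -0.15. With at most 20000 UMIs per cell and at resolution 1.6 the name also took RPE-type clusters, so these were not the same cells. The control level of *Mitf* in the class ran from 111.0 to 337.7 CPM over the alternatives. Under the main setting *Tfe3* stood at 0.86 (-0.63 to 2.54) in melanocyte-like cells.

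In macrophage-like cells the 4 genes lay near parity, with log2 ratios of -0.06 (-1.05 to 0.92) for *Mitf*, -0.06 (-0.72 to 0.60) for *Tfec*, 0.01 (-0.91 to 0.93) for *Tfeb* and 0.21 (-0.43 to 0.87) for *Tfe3*. In this class 3.55% of 10199 genes were called lower and 3.59% higher. Over all named classes *Mitf* could be compared in 7, *Tfec* in 2, *Tfeb* in 7 and *Tfe3* in 13, and the melanocyte-like value of *Mitf* was the only one whose interval excluded 0. In retinal progenitor-like cells *Mitf* stood at -0.40 (-0.95 to 0.13), and in periocular mesenchyme-like cells at 0.24 (-0.34 to 0.85).

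**Figure D2:**
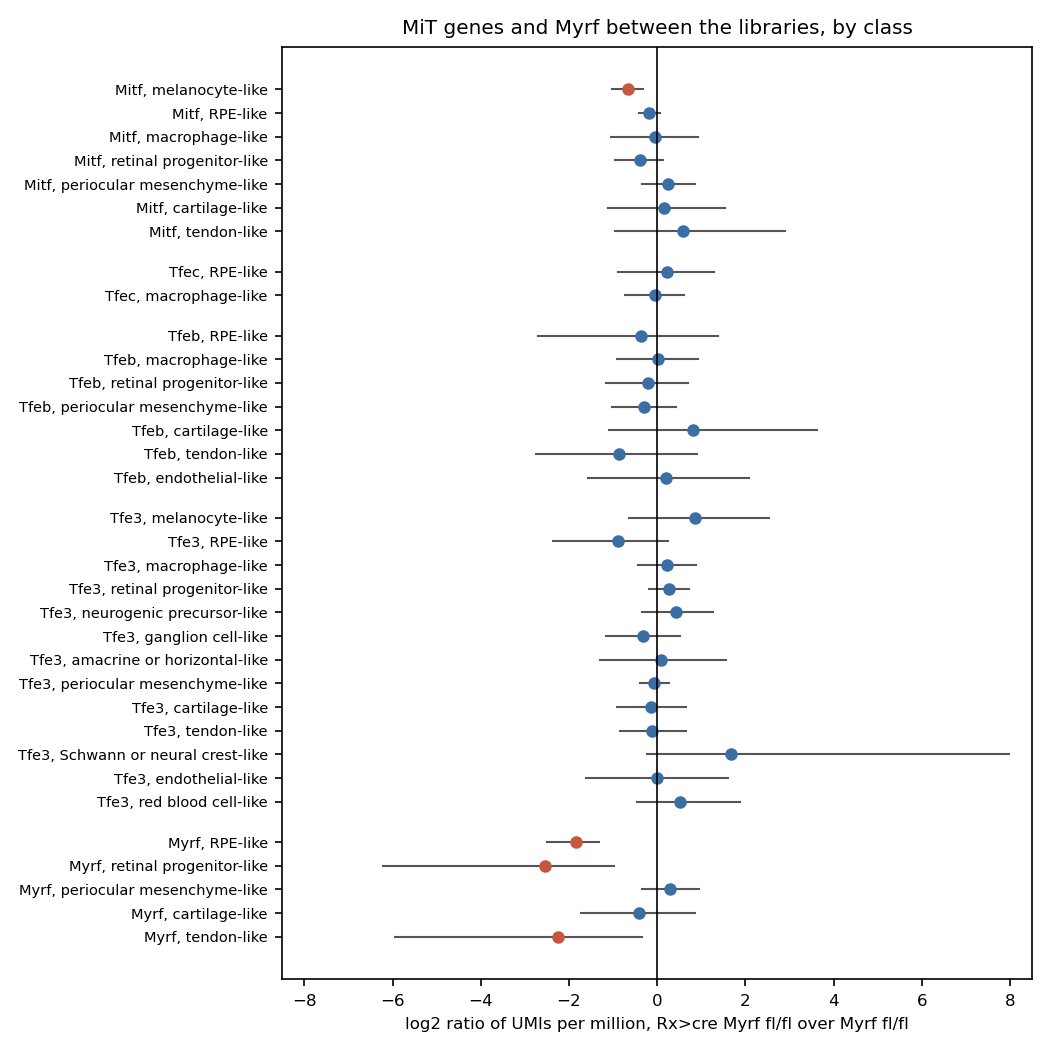
Log2 ratio of mutant over control for each MiT gene and *Myrf* by cell class, with exact conditional binomial intervals. The interval of *Mitf* in melanocyte-like cells (-1.02 to -0.31) excluded 0, and that in RPE-like cells (-0.42 to 0.07) included it.

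The retinal progenitor-like class was not uniform in *Mitf*. Its cells were split by how many of *Wfdc1*, *Msx1* and *Otx1* they expressed, markers of the ciliary margin, where the neural retina meets the RPE. This split was made after earlier values had been seen. In the control *Mitf* stood at 2.60 CPM (1.61 to 3.97) in 745 cells with none of the markers, at 2.82 CPM (1.67 to 4.45) in 406 cells with 1, and at 9.58 CPM (6.597 to 13.46) in 149 cells with 2 or 3. In the mutant the values were 1.16 CPM (0.554 to 2.12) in 814 cells, 3.57 CPM (2.24 to 5.40) in 423 cells and 7.87 CPM (4.87 to 12.02) in 132 cells. The marker-rich cells were above the marker-free cells in both libraries, beyond counting error.

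*Tfe3* did not follow this order, at 4.95, 3.28 and 5.81 CPM in the control and 6.24, 4.22 and 5.62 CPM in the mutant. *Pmel*, the pigment gene with the most UMIs in RPE-like cells, stood at 14.7, 11.9 and 12.8 CPM in the control and at 5.89, 6.81 and 3.75 CPM in the mutant, so it was not higher in the marker-rich cells. Median depth was higher with more markers, from 10748 to 22088 UMIs per control cell and from 10600 to 19296 UMIs per mutant cell. CPM divides by depth, and the part of depth in the choice of cells was not tested. Optic stalk markers gave a similar order, with *Mitf* over both libraries at 2.81 CPM with none, 2.73 with 1, 7.85 with 2 and 9.93 with 3 or more.

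**Figure D3:**
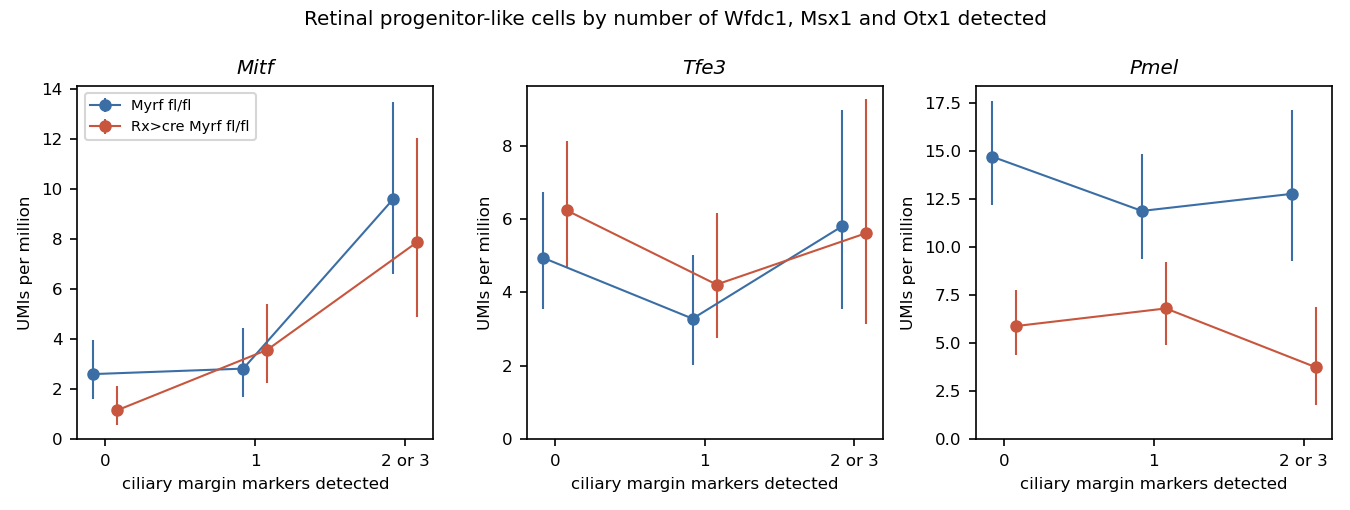
Levels in retinal progenitor-like cells by the number of ciliary margin markers detected, as CPM with exact Poisson intervals. *Mitf* reached 9.58 CPM in the control and 7.87 CPM in the mutant in cells with 2 or 3 markers, while *Tfe3* and *Pmel* showed no such order.

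Within the macrophage-like class, 102 of 125 control and 110 of 137 mutant cells had at least 3 UMIs of the complement genes *C1qa*, *C1qb* and *C1qc*. They had *Tfec* at 24.3 and 27.6 CPM, *Tfe3* at 27.6 and 33.9 CPM, *Tfeb* at 12.6 and 13.4 CPM and *Mitf* at 10.9 and 12.6 CPM. Over the whole class *Tfec* stood at 23.41 and 22.46 CPM, *Tfe3* at 21.73 and 25.27 CPM, *Tfeb* at 12.26 and 12.35 CPM and *Mitf* at 11.15 and 10.67 CPM. A further 7 control and 7 mutant cells expressed *Cpa3*, a mast cell protease, and *Kit*. These cells held 4 and 2 *Mitf* UMIs and no *Tfec* UMI, at most 10.5 and 9.23 CPM. The counts are too few to set the 2 kinds of cell apart in *Mitf*.

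The targets of the family were examined next. MITF binds the M-box and E-box upstream of melanin genes, and these short stretches of promoter are shown because they are the elements that link *Mitf* to the pigment genes. Promoters were taken from RefSeq (GRCm38.p6), as the 250 bases before each gene's start, and searched on both strands. CATGTG, or CACATG on the other strand, occurred in 7 of the 14 windows of 11 matched pigment targets and in 12.3% of the windows of all promoters. CACGTG occurred in 21.4% and 6.02%. The list holds genes already known as MITF targets, so these shares describe the list and are no separate support. The motif is in capitals in each stretch, written in the direction of the gene.
Tyr, chr7:87493516-87493545, reverse strand: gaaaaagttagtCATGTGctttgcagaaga
Tyrp1, chr4:80834155-80834184, forward strand: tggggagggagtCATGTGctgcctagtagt
Dct, chr14:118052379-118052408, reverse strand: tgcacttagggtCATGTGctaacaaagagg
Trpm1, chr7:64153682-64153711, forward strand: ccaaatcctcatCATGTGcccaccccaaac
Mlph, chr1:90915040-90915069, forward strand: tcaggagtagccCACGTGatctgagccgca
A match describes these letters and shows no binding.

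The pigment targets of *Mitf* were lower as a list in mutant RPE-like cells. Of 16 genes 14 could be compared, 12 were lower and 2 higher, and the median log2 ratio was -0.38, against -0.03 over all 11181 genes, of which 53.3% were below 0. The call was met by 2 of them as lower, where 4.81% of all genes were called lower. *Gpnmb*, which encodes a melanosome glycoprotein, had 833 UMIs or 401.9 CPM in the control and 343 UMIs or 229.6 CPM in the mutant, for a log2 ratio of -0.81 (-0.99 to -0.62). *Gpr143*, the ocular albinism receptor of the melanosome, had 131 and 58 UMIs and a ratio of -0.69. *Tyr*, the rate-limiting enzyme of melanin synthesis, stood at -0.34 (-0.49 to -0.19) and *Dct*, a later enzyme of the pathway, at -0.47 (-0.55 to -0.40). *Trpm1*, at 1334 and 1406 CPM, and *Rab38*, a melanosome transport GTPase, were not lower, with ratios of 0.08 and 0.09.

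The list moved with the mitochondrial share of the cells. In RPE-like cells with at most 5% mitochondrial UMIs 9 of 14 pigment targets were lower and the median was -0.04, whereas in the cells above that share 13 of 14 were lower and the median was -0.40. The median mitochondrial share was 5.30% in control and 4.82% in mutant RPE-like cells, and its part in the list was not tested. In retinal progenitor-like cells 11 of the 12 list genes that could be compared were lower in the mutant, with a median of -0.83, where 54.8% of all genes were below 0. In neurogenic precursor-like cells 6 of 6 were lower, with a median of -1.35, where 55.0% of all genes were below 0. *Pmel* is not a marker of these classes. Its level was 13.34 CPM in control and 5.887 CPM in mutant retinal progenitor-like cells. Red blood cell-like cells held *Pmel* at 7.101 and 10.04 CPM, and RPE-like cells at 6328 and 4981 CPM. RPE-like cells made up 4.279% of kept control cells and 2.397% of kept mutant cells. The part of free RNA in the list ratios of other classes was not tested. In endothelial-like cells 4 of 4 comparable list genes were lower, where 57.9% of all genes were below 0, and in ganglion cell-like cells 4 of 4, where 54.1% were. Not every class had this direction. In macrophage-like cells 5 of 7 comparable list genes were higher, where 51.3% of all genes were below 0. In amacrine or horizontal-like cells 3 of 3 were higher, where 51.2% were below 0. In red blood cell-like cells 3 of 6 were lower, where only 27.6% of all genes were below 0. With at most 2000 UMIs per cell the RPE-like median of the list was 0.13, with 3 of 11 genes lower, and with means of log values it was -0.10.

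The 2 pigment cell classes, both high in *Mitf*, differed in the level of some of its targets and were close in others. In the control *Rab38* stood at 196.8 CPM in RPE-like and 186.3 CPM in melanocyte-like cells, and *Slc45a2* at 100.8 and 82.15 CPM. *Tyrp1* stood at 312.6 and 234.3 CPM in RPE-like cells and at 0 in the melanocyte-like cells of both libraries. *Oca2*, a melanosome ion channel gene, stood at 142.3 and 116.5 CPM against 0 and 1 UMI, and *Trpm1* at 1334 and 1406 CPM against 28.9 and 15.2 CPM. *Dct* went the other way, at 2003 and 1445 CPM in RPE-like cells and 4980 and 4009 CPM in melanocyte-like cells, as did *Mlph*, the melanosome linker melanophilin, at 17.9 and 12.7 CPM against 140.0 and 80.7 CPM. *Pmel*, *Tyr*, *Tyrp1*, *Dct*, *Mlana*, *Mc1r* and *Gpr143* were among the markers used for naming, so for them these levels are a description.

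**Figure D4:**
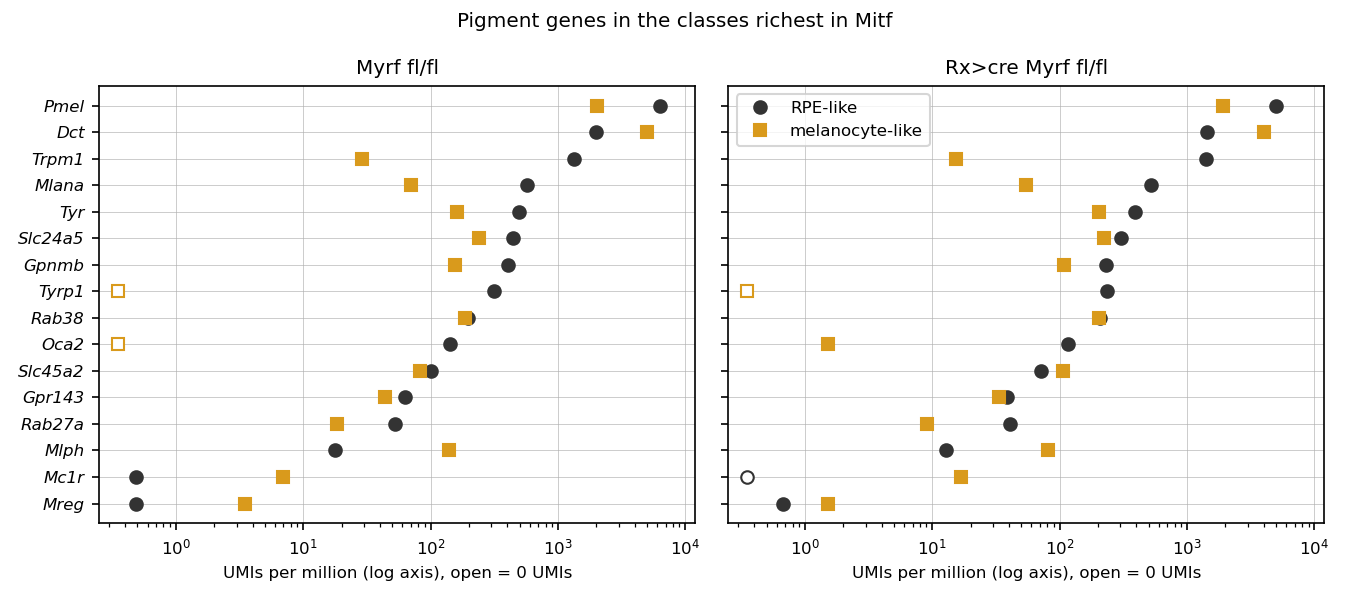
Levels of MITF pigment targets in RPE-like and melanocyte-like cells of both libraries, in CPM on a log axis. *Tyrp1*, *Oca2* and *Trpm1* were higher in RPE-like cells, and *Dct* and *Mlph* were higher in melanocyte-like cells.

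In melanocyte-like cells, where *Mitf* itself was called lower, 9 of 13 comparable pigment targets were lower, with a median of -0.31 against -0.02 over all genes, of which 53.0% were below 0. *Mlph* was the only one called, at -0.78 (-1.29 to -0.32), from 121 control and 53 mutant UMIs, where 2.68% of all genes were called lower. *Dct* stood at -0.31 (-0.38 to -0.24), *Pmel* at -0.07 (-0.18 to 0.03) and *Tyr* at 0.33 (-0.02 to 0.69). Only the first of these 3 intervals excluded 0. The melanocyte factor *Sox10*, an activator of *Mitf* transcription, stood at -0.37 (-0.66 to -0.10) and *Pax3*, another, at -0.14 (-0.54 to 0.24).

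Of the other 14 genes listed as MITF targets 10 could be compared in RPE-like cells, with 6 lower and 4 higher, where 53.3% of all genes were below 0. The call was met by 3 as lower and 1 as higher, where 4.81% and 3.23% of all genes were so called. *Rdh5*, a retinol dehydrogenase of the visual cycle, was called lower with 609 and 242 UMIs and a ratio of -0.86. *Rlbp1*, the retinaldehyde carrier of the same cycle, was called lower with 1007 and 418 UMIs. *Tbx2*, a repressor of cell cycle inhibitors, had 29 and 5 UMIs and a ratio of -1.85 (-3.79 to -0.68), also called, though below the count at which genes were named by size. Both visual cycle genes are RPE markers by which the class was named.

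*Cdkn1a*, a cell cycle inhibitor that MITF and p53 can activate, was the one gene of this list called higher. It had 3 control and 113 mutant UMIs in RPE-like cells, which gave a log2 ratio of 5.31 (4.12 to 8.01). The 113 UMIs came from 16 of the 151 mutant cells, with at most 21 in a cell. In these 16 cells *Mitf* stood at 113.6 CPM on 20 UMIs, against 159.4 CPM in the other 135 mutant RPE-like cells. Of 2 p53 targets looked at after the values were seen, *Ccng1* stood at 204.5 CPM on 36 UMIs against 13.7 CPM in the others, and *Mdm2* at 68.2 CPM on 12 UMIs against 41.0 CPM. The 16 cells were picked by a *Cdkn1a* UMI and were deeper, with a median of 9418.5 UMIs against 3354. The sums of *Mitf* and *Mdm2* in them are small, and the part of MITF, p53 or depth in the *Cdkn1a* counts was not tested. Summed over all kept cells outside the RPE-like class *Cdkn1a* had 625 and 464 UMIs and a ratio of -0.70 (-0.88 to -0.53). The mix of classes in this sum differed, with red blood cell-like cells at 3.804% of control and 7.746% of mutant kept cells. By class it stood at 40.12 and 44.36 CPM in macrophage-like and 1.184 and 1.462 CPM in red blood cell-like cells. It stood at 1.841 and 0.9717 CPM in retinal progenitor-like cells, and melanocyte-like cells held 2 UMIs in each library.

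TFEB and TFE3 act on lysosomal genes through the CLEAR element, an E-box extended to TCACGTGA, and a few such sites are shown because the lysosomal list moved in opposite directions in 2 classes. In the 28 windows of 24 matched lysosomal genes CACGTG occurred in 42.9% and TCACGTGA, which contains it, in 21.4%, against 6.02% and 0.785% of all promoter windows. The genes were listed as CLEAR genes, so these shares describe the list and are no separate support. The element is in capitals, in the direction of the gene.
Ctsd, chr7:142387907-142387938, reverse strand: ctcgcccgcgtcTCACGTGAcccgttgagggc
Mcoln1, chr8:3500461-3500492, forward strand: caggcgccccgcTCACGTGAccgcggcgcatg
Atp6v1a, chr16:44139372-44139403, reverse strand: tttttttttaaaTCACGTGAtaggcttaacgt
Gla, chrX:134601181-134601212, reverse strand: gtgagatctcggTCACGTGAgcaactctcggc
The 9 promoter windows of the 4 MiT genes held neither CACGTG nor CATGTG. The cAMP response element TGACGTCA, which binds CREB, occurred in 1 of them and in 1.55% of all windows, at 153 bases before a start of *Mitf*.
Mitf, chr6:97991618-97991649, forward strand: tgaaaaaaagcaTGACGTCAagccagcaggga

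The CLEAR lysosomal genes were lower in mutant RPE-like cells. Of 35 genes 34 could be compared, 30 were lower and 4 higher, and the median log2 ratio was -0.38, where 53.3% of all genes were below 0. Summed, the list stood at 5069 CPM in the control and 4127 CPM in the mutant. The call was met by 2 genes as lower and by none as higher, a count near the 4.81% of all genes called lower. *Ctsb* and *Ctsd*, lysosomal proteases, stood at -0.54 (-0.80 to -0.30) and -0.46 (-0.57 to -0.36), below the 1.5-fold limit with intervals that excluded 0. *Lamp1*, *Hexa*, *Glb1* and *Atp6ap1* were the 4 that were not lower, with ratios from 0.05 to 0.14 and intervals that included 0. In the RPE-like cells with at most 5% mitochondrial UMIs 21 of 31 comparable genes were lower, with a median of -0.29, and in the cells above that share the median was -0.24. With at most 2000 UMIs per cell 8 of 19 were lower and the median was 0.06. It was -0.07 with means of log values and -0.18 in cells of female embryos.

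In macrophage-like cells the same lysosomal list was higher in the mutant. Of 34 genes compared, 30 were higher and 4 lower, and the median was 0.38 against -0.02 over all 10199 genes, of which 51.3% were below 0. The list summed to 6514 CPM in the control and 9348 CPM in the mutant. The call was met by 6 genes as higher, where 3.59% of all genes were called higher. *Ctsd*, with 1194 and 2618 UMIs, stood at 1.14 (1.04 to 1.24), and *Ctsb*, with 2715 and 4286 UMIs, at 0.67 (0.60 to 0.74). *Gla*, a lysosomal hydrolase, at 0.97, and *Mcoln1*, the lysosomal calcium channel, at 1.596 on 4 and 14 UMIs, were also among them. *Ctsb* and *Ctsd* thus lay on opposite sides of 0 in the 2 classes of the same libraries.

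The 12 macrophage markers moved with this list, at 11450 CPM in the control and 15430 CPM in the mutant, and their part in it was not tested. Markers of other blood cells differed between the libraries in this class too. *S100a9*, a neutrophil gene, had no UMI in the control and 3431 UMIs, or 1927 CPM, in the mutant, and *Cpa3* stood at 987.5 and 699.7 CPM. Among the cells with at least 3 C1q UMIs, 28 of 33 lysosomal genes were higher, with a median of 0.41. In the melanocyte-like class 15 were lower and 16 higher, with a median of 0.00. Over the other 13 classes the median of the list ran from -0.18 in muscle-like to 0.19 in surface ectoderm-like cells. No MiT gene was called in RPE-like or macrophage-like cells.

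**Figure D5:**
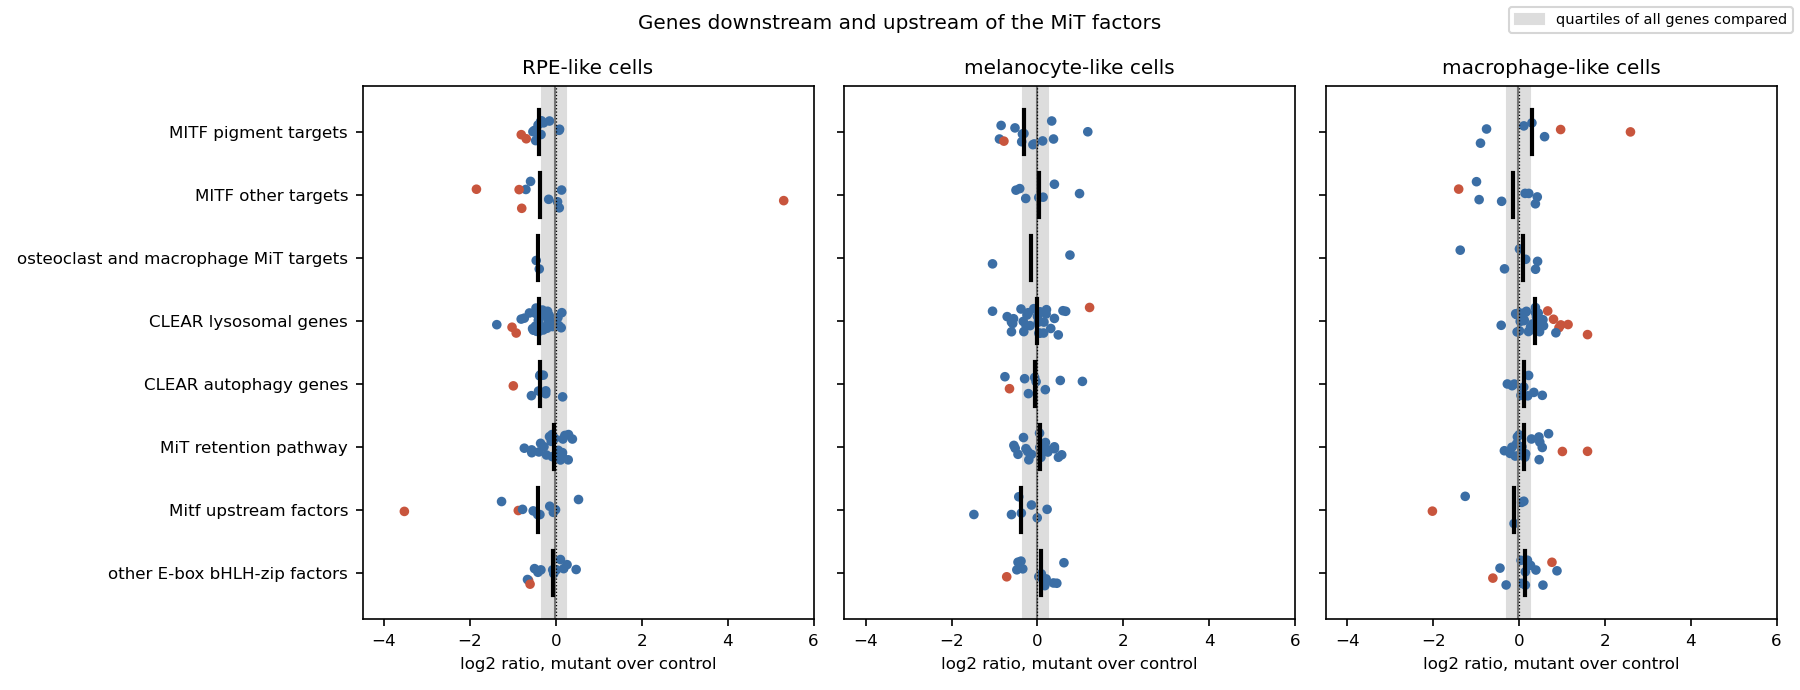
Log2 ratio of mutant over control for each comparable gene of the MiT target and pathway lists, in RPE-like, melanocyte-like and macrophage-like cells, with list medians. The CLEAR lysosomal list had a median of -0.38 in RPE-like, 0.00 in melanocyte-like and 0.38 in macrophage-like cells.

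The CLEAR autophagy genes had 8 of 9 comparable members lower in the mutant RPE-like class, where 53.3% of all genes were below 0. Their median was -0.36, against -0.03 over all genes. The call was met by 1 of them as lower, where 4.81% of all genes were called lower. *Wipi1*, which binds the membrane of forming autophagosomes, was called lower with 101 and 36 UMIs at -0.99. It was also called lower in melanocyte-like cells, with 63 and 30 UMIs at -0.65 (-1.35 to -0.03), where 2.68% of all genes were called lower. In all kept cells outside the RPE-like class *Wipi1* stood at 0.03 (-0.08 to 0.13). *Becn1*, a core component of autophagy initiation, stood at -0.36 in RPE-like cells and *Sqstm1*, the autophagy receptor p62, at -0.29. Of the osteoclast and macrophage targets of MiT factors only *Clcn7* and *Ostm1*, partners in a lysosomal chloride transporter, could be compared in RPE-like cells, at -0.46 and -0.39. In macrophage-like cells 6 of these 10 genes could be compared, with 4 higher and none called, where 51.3% of all genes were below 0.

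Genes that control where TFEB and TFE3 lie in the cell were about evenly split. The list of 22 holds the Rag GTPases, the Ragulator subunits, folliculin and mTORC1, which act to keep these factors in the cytoplasm, inhibitors of mTORC1, and calcineurin and *Mcoln1*, which act towards their release to the nucleus. All could be compared in RPE-like cells, with 12 lower, 10 higher, none called and a median of -0.05, where 53.3% of all genes were below 0. *Lamtor4*, a Ragulator subunit, stood at -0.28 (-0.50 to -0.06) and *Rragd*, a Rag GTPase, at -0.36 (-0.76 to 0.02). *Ppp3cb*, a catalytic subunit of calcineurin, stood at 0.30 and *Rheb*, the activator of mTORC1, at 0.17. In macrophage-like cells 14 of 20 were higher, where 51.3% of all genes were below 0. *Fnip1*, a folliculin partner, and *Mcoln1* were called higher, where 3.59% of all genes were called higher. *Fnip1* had 17 and 35 UMIs and stood at 1.01 (0.18 to 1.98). *Mcoln1* is also on the lysosomal list, so this is the same call as the one given there.

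Of the 14 factors known to act upstream of *Mitf* 11 could be compared in RPE-like cells, with 10 lower and a median of -0.42, where 53.3% of all genes were below 0. The call was met by 2 as lower, against 4.81% of all genes. *Sox9*, which works with OTX2 and MITF on RPE genes, was called lower with 289 and 113 UMIs at -0.87, against -0.10 (-0.18 to -0.02) in all other kept cells. *Sox10* was also called, from 15 control UMIs and no mutant UMI. *Otx2*, with 731 and 407 UMIs, stood at -0.37 (-0.55 to -0.20), *Otx1* at -0.42, *Creb1* at 0.53 and *Ctnnb1*, the mediator of Wnt signals, at -0.01 (-0.19 to 0.17). Among 13 comparable factors of other families that read the E-box, 8 were lower with a median of -0.07, where 53.3% of all genes were below 0. The call was met by 2 of them as lower, where 4.81% of all genes were called lower. *Usf1* was called lower at -0.63 and *Mxd4*, a MAX partner, at -0.60, while *Max* itself stood at 0.11 and *Mlx* at 0.26.

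The genes whose levels over 16 named classes in 2 libraries, 32 points in all, followed each MiT gene most closely are given as a description, since the points share libraries and depth. For *Mitf* these were *Bhlhe41* with a Pearson correlation of 0.92, *Ptgds* with 0.90, *Gpnmb* with 0.90, *Slc45a2* with 0.90 and *Rab17* with 0.88. For *Tfec* they were *Gas6* with 0.91, *Napsa* with 0.90, *Csf1r* with 0.89, *Xlr* with 0.87 and *Cd79b* with 0.87. For *Tfeb* they were *Cltc* with 0.87, *B2m* with 0.83, *Lpcat2* with 0.82, *Ehd4* with 0.82 and *Man2b1* with 0.81. For *Tfe3* they were *Slc29a3* with 0.85, *Tbc1d14* with 0.75, *Slc9a9* with 0.75, *Gpt* with 0.75 and *Osbpl11* with 0.74. Between members the highest correlation was that of *Tfec* with *Tfeb*, at 0.61, and the lowest that of *Mitf* with *Tfe3*, at 0.16.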

How the data were processed

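Cells of 2 pooled e13.5 eye cup libraries, 1 per genotype, were measured on the 10x 3′ platform. The authors deposited UMI counts per gene and barcode, without normalization, from Cell Ranger on mm10; the submitters' processing notes name Cell Ranger 7.1.0 and Seurat 4.1.1, while the matrix header gives software version 3.0.0. Whether intronic reads were counted is not given in the sources used here. Barcodes needed at least 200 genes and at most 15% mitochondrial UMIs (515 control and 371 mutant barcodes failed the latter). Scrublet in scanpy 1.11.5, at an expected doublet rate of 5%, marked 51 and 74 cells. The upper limit of 2000 UMIs per cell in the study's methods was run as an alternative. Libraries were integrated and clustered in Seurat 5.3.0 under R 4.3.3 at resolution 0.8, without the MiT genes and listed genes among the variable features. A cluster was named where at least 3 markers were over 2-fold its other cells and their mean log2 fold was at least 0.5; unnamed clusters held 977 control and 855 mutant cells. UMIs were summed per class and library. Ratios and exact 95% intervals were computed with scipy 1.17.1 and tested on simulated data. Each genotype being 1 library, nothing was tested, and intervals and floors of 3 UMIs cover counting error only. Named genes were the members, the 3 largest falls and rises of each list among genes with at least 100 UMIs in RPE-like cells, the 5 genes most like each member, markers and *Myrf*; genes of smaller counts and further list members are described beside them. The members and lists were chosen with earlier results of these data known. Values of some single lysosomal genes are not reported here, while sums and counts over their list include them. Alternatives are given in the closing section.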

Additional observations from a re-analysis of the deposited data

Results flagged for a closer look

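Some target genes of the family differed between the libraries in opposite directions in 2 cell classes, with both counting intervals away from 0. The difference between classes was not tested, since each library is 1 sample. In RPE-like and macrophage-like cells the log2 ratio of mutant over control was -0.41 and 0.48 for *Ctsa*, -0.54 and 0.67 for *Ctsb*, -0.46 and 1.14 for *Ctsd*, -0.40 and 0.48 for *Lamp2*, -0.52 and 0.28 for *Psap* and -0.48 and 0.42 for *Tpp1*, all lysosomal genes. *Npc2*, a lysosomal cholesterol carrier, stood at -0.20 in RPE-like, -0.26 in melanocyte-like and 0.15 in macrophage-like cells. *Gpnmb*, which is active in pigment cells and in macrophages, stood at -0.81, -0.52 and 2.60 in these classes, the last with an interval of 0.69 to 8.90 on 1 control and 11 mutant UMIs, 45.5% of the latter in 1 cell. *Pmel* stood at -0.35 in RPE-like cells and 0.97 in macrophage-like cells, the latter with an interval of 0.13 to 1.94 on 17 control and 34 mutant UMIs, of which 1 mutant cell held 61.8%. The summed macrophage markers, at 11450 CPM in the control and 15430 CPM in the mutant, moved with the macrophage-like values, as did *S100a9*, a neutrophil gene, at 0 and 1927 CPM, and their part was not tested.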

How the results depend on the processing

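No paired analysis was possible because each genotype is 1 library. Of 1312 values recomputed under alternatives, 1162 stayed within the interval of the reported value or the spread of its list, 139 moved out of it, and 11, whose reported interval or spread lay on 1 side of 0, changed sign. *Mitf* in RPE-like cells, whose interval included 0, kept its sign in 15 of 19 alternatives. With the study's limit of 2000 UMIs per cell, which left 84 control and 59 mutant RPE-like cells and no melanocyte-like class, *Mitf* in RPE-like cells stood at 0.42, the pigment median at 0.13 and the lysosomal median at 0.0598, and the signs of *Gpnmb* (0.071), *Gpr143* (1.645), *Slc24a5* (0.13), *Rdh5* (0.42), *Ctsb* (0.42) and *Usf1* (0.0073) changed. With a mitochondrial limit of 5% *Mitf* was 0.0855, the pigment median -0.0098 and the control share with a *Mitf* UMI 47.06%, and *Lamtor4* (0.0079) and *Otx2* (0.11) changed sign. Keeping only the RPE-like cells with at most 5% mitochondrial UMIs, chosen after seeing the data, gave 0.0652, -0.0427 and 50%, with *Otx2* at 0.0685. Means of log values gave -0.15 for *Mitf* in melanocyte-like cells, -0.10 for the pigment median and -0.0741 for the lysosomal median. Cells of female embryos gave -0.58 for *Mitf* and -1.25 for *Tfec* in RPE-like cells, and medians of -0.29 and -0.18, and cells of male embryos gave 0.0699 for *Mitf*. The thinned share with a *Mitf* UMI was 15.9% in the control and 13.7% in the mutant at 1500 UMIs, 54.0% and 62.5% at 5000, and 52.1% and 53.6% without thinning. The cause of these changes was not tested. With at most 20000 UMIs per cell the pigment median was -0.505. Under that limit and at resolution 1.6 the melanocyte-like name also took RPE-type clusters. Leaving out barcodes found in both libraries, also chosen after seeing the data, changed no direction of the values above. Sums of 4 to 45 UMIs in RPE-like and macrophage-like cells limit what can be said of *Tfec*, *Tfeb* and *Tfe3*.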
